A study of Mus musculus with 8 samples.

Results

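Collagen alpha chains are the gene products that fold, 3 at a time, into the triple helices of the extracellular matrix. Rows of the count table whose symbol has the form of a collagen chain gene numbered 44 of 24411, and 40 of them were among the 14679 genes that passed the filter on low counts. The 38 chains with a mean raw count of 20 or more over the 8 libraries are described here, and all 38 were tested. The smallest mean raw count among these was 20.2 for Col13a1, and the largest among the 6 chains left out was 12.6 for Col11a1. The other chains left out were Col9a1, Col9a2, Col17a1, Col25a1 and Col26a1.

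Fibrillar collagens I, III and V give the arterial media and adventitia their tensile strength, and collagen IV forms the sheet-like network of the basement membranes under endothelium and around smooth muscle cells. Collagen VI builds beaded filaments in the matrix around cells, collagen VIII forms a hexagonal network in the vessel wall, and FACIT collagens (fibril-associated collagens with interrupted triple helices) sit on the surface of fibrils. In atherosclerotic plaques the fibrillar collagens form the fibrous cap, where smooth muscle cells and fibroblasts produce them and macrophage proteases break them down.

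Poly(A) RNA of whole aortas was sequenced from 8 mice, all of which were ApoE(-/-) and carried the caIKK2(+/+) transgene. It encodes IKK2, the NF-κB-activating kinase, in a constitutively active form, with EGFP made from the same transcript, behind a STOP cassette flanked by loxP sites. In the 5 caIKK2EC mice, which were also BMX-CreERT2(+/-), a tamoxifen-inducible Cre driven by the arterial endothelial gene Bmx could remove the cassette, and the 3 Control mice were BMX-CreERT2(-/-) littermates. Both groups received tamoxifen (1 mg per 20 g of body weight, intraperitoneally on 5 consecutive days) and a Western-type diet for 12 weeks, and were 18 or 19 weeks old. All were female except Control 3. The series describes activation at early or late disease, and the labels do not say to which of these the 8 mice belong. Arterial endothelium is a small part of a whole aorta, and in RNA of the whole vessel, fewer cells of a type and less RNA per cell cannot be told apart.

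The total count per library was 23461655 to 30808502, and collagen genes took 1.87% to 2.89% of it. Ikbkb, which encodes IKK2, had a log2 fold change of 0.30 with an SE of 0.12 (edgeR adjusted p = 0.237), with all 5 caIKK2EC libraries above all 3 Controls. Several libraries stood apart. Control 3, the only male, held the highest value of 17 of the 38 chains and the lowest of 9. Levels are given in CPM, counts scaled to a common library size with TMM factors. The summed level of 8 smooth muscle markers in Control 3 was 36540.5 CPM, above the 10062 to 20857 CPM of caIKK2EC and the 18335 and 21772 CPM of Control 1 and 2. Its summed level of 8 macrophage markers was 1830.1 CPM, against 6334 and 6558 CPM in Control 1 and 2. Most of that gap was Lyz2, at 541 CPM against 4059 and 4399 CPM. Adgre1 (83.7 CPM against 90.7 and 80.2 CPM) and Mrc1 (83.5 CPM against 96.1 and 74.2 CPM) lay between Control 1 and 2. The remaining macrophage markers were lower in Control 3 than in both. caIKK2EC 4 held the highest value of 14 chains, and caIKK2EC 1 the lowest of 14. Of 6 skeletal and heart muscle markers, caIKK2EC 1 and Control 1 held summed levels of 865 and 1721 CPM, and the other libraries 29.5 to 67.5 CPM. Lane 7, as the deposited column names give it, held the 3 Controls and caIKK2EC 1, and lane 8 held caIKK2EC 2 to 5, so that lane and genotype cannot be told apart for these 4 libraries. Values within lane 7 set caIKK2EC 1 alone against the 3 Controls and carry no test.

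Collagen chains did not move as one group. Of the 38, 20 were higher and 18 lower in caIKK2EC than in Control, with a median log2 fold change of 0.011, beside -0.017 over all 14679 genes tested, of which 47.4% were higher. No chain passed an edgeR adjusted p of 0.05, and neither did any other gene (0% of all tested). At an unadjusted edgeR p under 0.05, 7 chains were higher (background 9.66% of all genes tested) and 6 were lower (background 7.47%). These are 18.4% and 15.8% of the 38 chains. DESeq2 called 3 chains higher, Col10a1, Col12a1 and Col6a4 (background 4.55%), and 1 lower, Col19a1 (background 1.51%), and the authors' deposited table has the same 4 under an adjusted p of 0.05. The 5 caIKK2EC libraries all lay above the 3 Controls for 5 chains (background 7.01%) and all below them for 2 (background 3.22%).

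**Figure D1:**
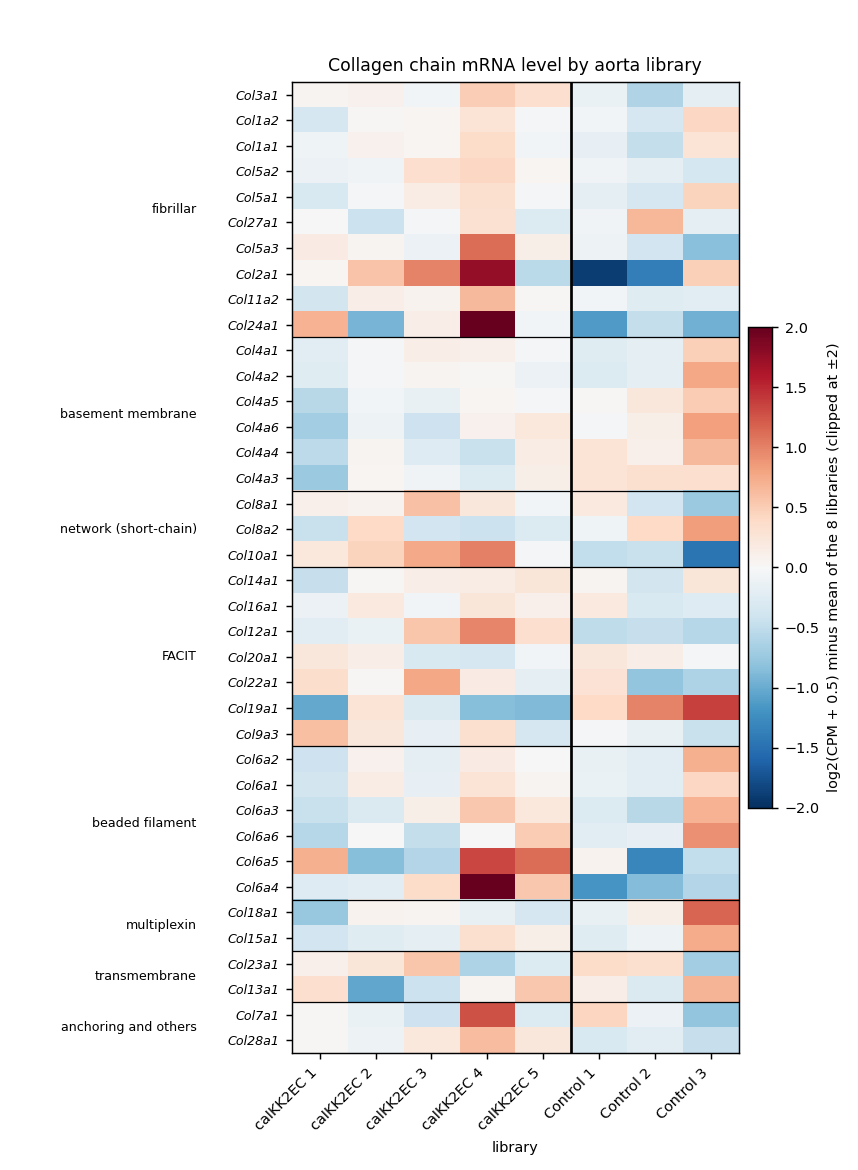
Level of the 38 collagen chains in each aorta library, as log2(CPM + 0.5) minus the mean of the 8 libraries (colour, clipped at ±2), with chains in rows by class and libraries in columns, caIKK2EC left of Control. Control 3 is the highest library of 17 chains and caIKK2EC 4 of 14.

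The counts shifted with single libraries. Without Control 3, 28 of the 38 chains were higher, and the chains lower at an unadjusted edgeR p under 0.05 numbered 1 in place of 6. That number was 3 without caIKK2EC 1, 2 without caIKK2EC 4 and 3 without Control 2. Without Control 2 the number higher was 4 in place of 7. The share of all genes at that p was not counted in these refits. A change of the collagen chains therefore cannot be told apart from one of the whole table. With lane as a covariate, 18 chains had higher and 20 lower estimates. Lane 8 holds caIKK2EC alone, so genotype in that fit rests on caIKK2EC 1 against the 3 Controls. DESeq2 called 1 chain without caIKK2EC 4, 2 without Control 2 or without Control 3, and 7 without caIKK2EC 2, in place of 4. Over all genes it called 374, 816, 389 and 1742 in these settings, in the same order, in place of 869.

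Among fibrillar collagens, 8 of 10 chains were higher in caIKK2EC, with a median log2 fold change of 0.34. Of these, 3 chains, Col3a1, Col5a3 and Col24a1, were at an unadjusted edgeR p under 0.05 (0 past the adjusted threshold). Of all genes tested, 9.66% were higher at that p. The summed level of the class was 13974, 15674, 15574, 19824 and 16256 CPM in caIKK2EC 1 to 5, against 13969, 11158 and 16969 CPM in Control 1 to 3. Of the abundant chains Col3a1 had the higher estimate, and those of the 2 chains of collagen I were smaller than their SE. Without Control 3 the median was 0.35, and within lane 7 it was 0.066.

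Col3a1 (ENSMUSG00000026043.18, chr1:45311538-45349706, plus strand, GRCm38) encodes the chain of collagen III, the stretchable fibrillar collagen of arteries, and was the most abundant chain by CPM. It measured 5144, 5231, 4780.0, 6946 and 6263 CPM in caIKK2EC 1 to 5, against 4511, 3259 and 4371 CPM in Control 1 to 3. All 5 caIKK2EC libraries were above all 3 Controls, although caIKK2EC 3 and Control 1 lay within 269 CPM of each other. The fold change was 1.40, a log2 fold change of 0.49 with an SE of 0.20 (edgeR adjusted p = 0.249, unadjusted p = 0.0327). The DESeq2 adjusted p was 0.0706. The groups of Col1a1 and Col1a2, the next in abundance, overlapped.

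Col1a1 (ENSMUSG00000001506.10, chr11:94936224-94953042, plus strand) and Col1a2 (ENSMUSG00000029661.16, chr6:4504814-4541544, plus strand) encode the chains of collagen I, the main tensile collagen of the wall. Col1a2 measured 3564, 4596, 4665, 5446 and 4457 CPM in caIKK2EC 1 to 5, against 4342, 3586 and 5998 CPM in Control 1 to 3, and the groups overlapped fully, with Control 3 the highest library and caIKK2EC 1 the lowest. Its log2 fold change was -0.030 (SE 0.21, edgeR adjusted p = 0.963), and 0.20 without Control 3. Means here and below are ± SD over the 5 caIKK2EC and 3 Control libraries. Col1a1 averaged 4197 ± 555 CPM in caIKK2EC (SD, n = 5) and 3733 ± 997 CPM in Control (SD, n = 3), with a log2 fold change of 0.17 with an SE of 0.20 (edgeR adjusted p = 0.719). Per kb of exon Col1a1 was at 639.5 CPM per kb in caIKK2EC and 569 CPM per kb in Control, Col3a1 at 578 CPM per kb in caIKK2EC and 412 CPM per kb in Control and Col1a2 at 366 CPM per kb in caIKK2EC and 374 CPM per kb in Control, so that Col1a1 led the per-length order in both groups. It led Col3a1 by less than the spread between libraries in caIKK2EC, and in Control Col3a1 led Col1a2 by less than that spread. Exon length here is the union over annotated transcripts, 6563 bases for Col1a1, 9816 for Col3a1 and 12426 for Col1a2. The per-length order depends on these lengths.

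The RefSeq promoter windows of Col3a1 and Col1a2, shown because these chains represent collagens III and I, span 250 bases before to 50 after the annotated start in GRCm38.p6. They lie at chr1:45311288-45311587 (plus strand) and chr6:4505368-4505667 (plus strand). Each is written 5′ to 3′ along the gene, and capitals mark matches on either strand to the GC box (GGGCGG), the CCAAT box (CCAAT), the TATA box (TATAAA), the AP-1 element (TGANTCA) or the NF-κB site.
Col3a1: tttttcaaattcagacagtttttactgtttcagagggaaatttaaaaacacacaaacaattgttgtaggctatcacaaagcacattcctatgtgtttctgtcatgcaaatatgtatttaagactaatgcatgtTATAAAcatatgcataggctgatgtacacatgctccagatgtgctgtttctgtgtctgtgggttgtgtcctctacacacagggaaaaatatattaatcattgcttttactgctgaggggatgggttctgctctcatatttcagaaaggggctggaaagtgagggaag
Col1a2: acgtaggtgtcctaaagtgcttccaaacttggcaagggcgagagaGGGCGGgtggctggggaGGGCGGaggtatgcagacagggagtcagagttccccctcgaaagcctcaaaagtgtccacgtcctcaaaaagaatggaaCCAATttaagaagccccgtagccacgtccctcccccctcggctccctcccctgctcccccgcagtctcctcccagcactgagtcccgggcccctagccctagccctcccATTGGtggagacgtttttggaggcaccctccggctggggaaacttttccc
Col3a1 holds a TATAAA match that begins 117 bases before the start and none of the other motifs. Col1a2 holds 2 GC boxes and 2 CCAAT boxes, and its RefSeq start lies inside the GENCODE gene rather than at its edge.

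Col5a1 and Col5a2 encode chains of collagen V, which nucleates collagen fibrils. Col5a2 averaged 924 ± 155 CPM in caIKK2EC and 732 ± 72.6 CPM in Control (log2 fold change 0.34, SE 0.17, edgeR adjusted p = 0.336), and Col5a1 averaged 779.7 ± 125 CPM in caIKK2EC and 770.3 ± 234 CPM in Control (log2 fold change 0.018, SE 0.21, edgeR adjusted p = 0.979). Within lane 7 the difference of Col5a1 turned to -0.28. Neither difference passed the test, and both sets of libraries overlapped.

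Col5a3, another collagen V chain, measured 48.0, 44.7, 39.6, 93.3 and 46.5 CPM in caIKK2EC 1 to 5, against 39.9, 33.0 and 23.8 CPM in Control 1 to 3. caIKK2EC 4 was far above all other libraries, and caIKK2EC 3 lay just below Control 1. This gave a log2 fold change of 0.76 with an SE of 0.29 (edgeR adjusted p = 0.233, unadjusted p = 0.0266), and 0.49 without caIKK2EC 4. Col24a1 (chr3:145292472-145552011), a fibrillar collagen known from developing bone, measured 4.27, 1.05, 2.73, 19.0 and 2.33 CPM in caIKK2EC 1 to 5, against 0.852, 1.63 and 1.01 CPM in Control 1 to 3. Its high value in caIKK2EC 4 dominated the group, and caIKK2EC 2 lay below Control 2. The log2 fold change of 2.33 with an SE of 0.89 (edgeR adjusted p = 0.232, unadjusted p = 0.0262) was 1.18 without caIKK2EC 4.

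Cartilage-type fibrillar chains were present at low levels. Col2a1, the main collagen of cartilage, measured 12.7, 18.6, 25.3, 43.2 and 8.38 CPM in caIKK2EC 1 to 5, against 2.96, 4.44 and 17.4 CPM in Control 1 to 3. The groups overlapped, since Control 3 was higher than caIKK2EC 1 and 5, and the log2 fold change of 1.40 with an SE of 0.68 (edgeR adjusted p = 0.332, unadjusted p = 0.0686) became 2.55 without Control 3. In DESeq2, Col2a1 was called without Control 3, and also without Control 3 and caIKK2EC 4 together, a setting chosen after seeing the data. Col11a2, a chain of cartilage collagen XI, averaged 8.37 ± 2.35 CPM in caIKK2EC and 6.64 ± 0.505 CPM in Control (log2 fold change 0.33, SE 0.24, edgeR adjusted p = 0.505). Of 8 chondrocyte markers 6 were in the table and 4 were tested, with summed levels of 91.2 to 175 CPM in caIKK2EC and 68.0 to 159 CPM in Control, and Matn1 and Matn3 were below 1 CPM in every library. The part of these markers in the Col2a1 difference was not tested. Col27a1, another cartilage-associated fibrillar chain, averaged 50.1 ± 9.99 CPM in caIKK2EC and 59.6 ± 20.6 CPM in Control (log2 fold change -0.25, SE 0.22, edgeR adjusted p = 0.597), and Control 2 was its highest library.

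**Figure D2:**
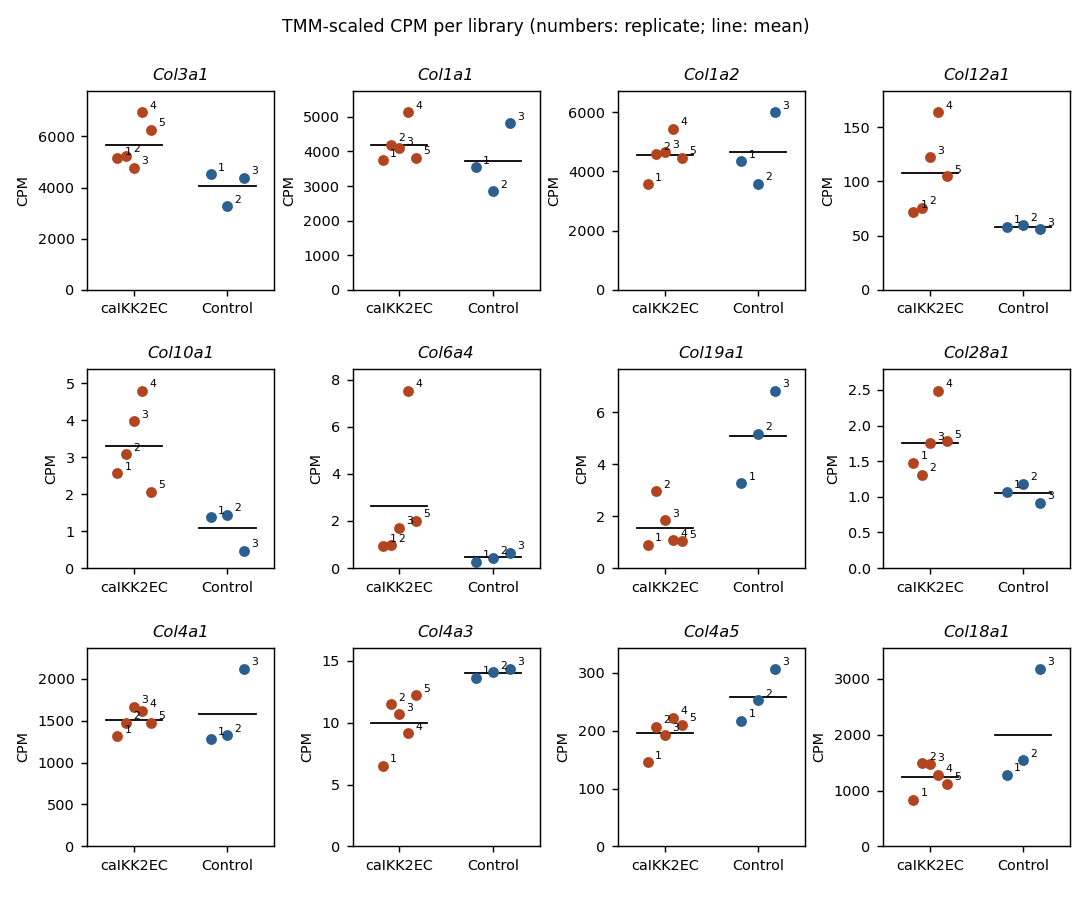
TMM-scaled CPM of 12 chains in each aorta library, caIKK2EC left of Control in every panel, with each point labelled by its replicate number and the line at the group mean. Col3a1, Col10a1, Col12a1, Col6a4 and Col28a1 have all caIKK2EC points above all Control points, and Col19a1 and Col4a3 have all of them below, while Control 3 is the high point for Col4a1, Col4a5 and Col18a1.

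All 6 collagen IV chains had lower estimates in caIKK2EC, with a median log2 fold change of -0.45. Col4a3, Col4a4 and Col4a5 were at an unadjusted edgeR p under 0.05 (0 past the adjusted threshold). Of all genes tested, 7.47% were lower at that p. The median was -0.23 without Control 3, where 4 of the 6 were lower, and -0.84 within lane 7, where all 6 were lower. The summed level of the class was 2534, 2967, 3185, 3202 and 2958 CPM in caIKK2EC 1 to 5, against 2638, 2797 and 4698 CPM in Control 1 to 3. The 5 caIKK2EC libraries, Control 1 and Control 2 lay close together in this sum, and Control 3 was above all of them.

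Col4a1 (ENSMUSG00000031502.11, chr8:11198423-11312826, minus strand) and Col4a2 (ENSMUSG00000031503.13, chr8:11312805-11449287, plus strand) encode the chains of the collagen IV found in nearly all basement membranes. Col4a1 measured 1317, 1479, 1664, 1623 and 1478 CPM in caIKK2EC 1 to 5, against 1285, 1326 and 2121 CPM in Control 1 to 3, and Col4a2 measured 944, 1086, 1169, 1145 and 1033 CPM in caIKK2EC 1 to 5, against 928, 992 and 1911 CPM in Control 1 to 3. In both, Control 1 and 2 lay within or below the caIKK2EC range and Control 3 was the highest library. The log2 fold change of Col4a1 was -0.061 (SE 0.19, edgeR adjusted p = 0.910) and became 0.21 without Control 3. That of Col4a2 was -0.25 (SE 0.23, edgeR adjusted p = 0.627) and became 0.16. The direction of these abundant chains therefore rested on 1 Control.

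The genes lie head to head and are transcribed in opposite directions from annotated RefSeq starts 21 bases apart. Their exons share 22 bases on opposite strands. Their windows, shown because they share sequence, lie at chr8:11312777-11313076 (minus strand) and chr8:11312555-11312854 (plus strand), and 78 bases (chr8:11312777-11312854) belong to both, read on opposite strands.
Col4a1: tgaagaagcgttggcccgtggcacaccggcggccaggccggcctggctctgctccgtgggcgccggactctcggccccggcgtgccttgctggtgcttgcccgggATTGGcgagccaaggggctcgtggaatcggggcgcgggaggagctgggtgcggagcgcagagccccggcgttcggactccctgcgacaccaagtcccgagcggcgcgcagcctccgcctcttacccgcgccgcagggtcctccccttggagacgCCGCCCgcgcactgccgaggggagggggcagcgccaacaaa
Col4a2: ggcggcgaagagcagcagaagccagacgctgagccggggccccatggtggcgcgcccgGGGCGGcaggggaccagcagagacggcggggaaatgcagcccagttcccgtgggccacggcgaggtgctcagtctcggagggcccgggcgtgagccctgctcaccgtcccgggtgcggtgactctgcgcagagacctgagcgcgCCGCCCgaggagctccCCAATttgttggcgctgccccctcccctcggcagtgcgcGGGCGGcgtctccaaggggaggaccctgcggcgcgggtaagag
Capitals mark GC boxes and CCAAT boxes on either strand, 1 of each in the Col4a1 window and 3 and 1 in the Col4a2 window. No TATAAA, AP-1 or NF-κB match was found in either.

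The minor collagen IV chains kept lower estimates without Control 3. Col4a3 (chr1:82586921-82722059), known from the basement membranes of kidney, lung and cochlea, measured 6.53, 11.5, 10.7, 9.15 and 12.2 CPM in caIKK2EC 1 to 5, against 13.6, 14.1 and 14.4 CPM in Control 1 to 3. All 5 caIKK2EC libraries were below the 3 Controls, which differed little among themselves. This was a log2 fold change of -0.49 with an SE of 0.20 (edgeR adjusted p = 0.258, unadjusted p = 0.0353). Col4a3 shares 563 exon bases with C430014B12Rik on the opposite strand, and reads in these bases could be counted for either gene.

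Col4a4, the partner chain of Col4a3 in the same network, measured 7.85, 12.0, 9.48, 8.29 and 12.8 CPM in caIKK2EC 1 to 5, against 14.0, 12.4 and 18.3 CPM in Control 1 to 3. Only caIKK2EC 5 reached above a Control, Control 2, and the log2 fold change of -0.56 with an SE of 0.21 (edgeR adjusted p = 0.214, unadjusted p = 0.0218) was -0.39 without Control 3. Col4a5 (chrX:141475385-141689234) measured 146, 207, 193, 222 and 210.0 CPM in caIKK2EC 1 to 5, against 217, 252 and 307 CPM in Control 1 to 3, with caIKK2EC 4 above Control 1, and had a log2 fold change of -0.41 with an SE of 0.16 (edgeR adjusted p = 0.248, unadjusted p = 0.0325). Col4a6, which pairs with Col4a5 in smooth muscle basement membranes, measured 113, 172, 138, 196 and 212 CPM in caIKK2EC 1 to 5, against 179, 199 and 325.9 CPM in Control 1 to 3, and its log2 fold change was -0.50 (SE 0.24, edgeR adjusted p = 0.332). Col4a6 passed the edgeR threshold with age as a covariate (-0.66, adjusted p = 0.0265), where among Controls the term sets only Control 3 apart. That fit called 407 genes higher and 254 lower over all genes tested, in place of 0. caIKK2EC 1 was the lowest library for all 4 minor chains. Beside them, 6 of 8 smooth muscle markers were lower at an unadjusted edgeR p under 0.05, against 7.47% of all genes tested. Their summed levels were 10062 to 20857 CPM in caIKK2EC and 18335 to 36540.5 CPM in Control, with Control 3 the highest. The part of these markers in the collagen IV values was not tested.

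Among the short-chain network collagens, Col8a1 and Col10a1 had higher estimates in caIKK2EC and Col8a2 a lower one. Col8a1, the chain of collagen VIII that arterial smooth muscle makes after injury, measured 180.2, 177, 254, 197 and 163 CPM in caIKK2EC 1 to 5, against 192, 129.7 and 101 CPM in Control 1 to 3. caIKK2EC 1, 2 and 5 lay below Control 1, with caIKK2EC 3 the highest library, and the log2 fold change was 0.46 (SE 0.22, edgeR adjusted p = 0.315). Col8a2, the other collagen VIII chain, measured 2.87, 5.56, 3.03, 2.92 and 3.33 CPM in caIKK2EC 1 to 5, against 3.85, 5.58 and 7.71 CPM in Control 1 to 3. caIKK2EC 2 was at the level of Control 2, and the other 4 caIKK2EC libraries were below all Controls. This gave a log2 fold change of -0.69 with an SE of 0.30 (edgeR adjusted p = 0.286, unadjusted p = 0.0476), and -0.41 without Control 3.

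Col10a1 (ENSMUSG00000039462.4, chr10:34389981-34397085, plus strand) encodes collagen X, known as the collagen of hypertrophic cartilage, and its mean raw count was 64.6. It measured 2.56, 3.08, 3.97, 4.81 and 2.07 CPM in caIKK2EC 1 to 5, against 1.37, 1.44 and 0.459 CPM in Control 1 to 3. Every caIKK2EC library was above every Control, and Control 3 was the lowest. The fold change was 2.99, a log2 fold change of 1.58 with an SE of 0.44 (edgeR adjusted p = 0.141, unadjusted p = 0.00478). DESeq2 called it (adjusted p = 0.00916), and the DESeq2 adjusted p was 0.0582 without caIKK2EC 4, 0.0505 without caIKK2EC 3 and 0.0686 without Control 3. Macrophage markers and Mmp13, described below, were also higher in these libraries, and their part in the Col10a1 difference was not tested. Col10a1 shares 18 exon bases with Nt5dc1 on the opposite strand.

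The Col10a1 window, shown because DESeq2 called this chain, lies at chr10:34389731-34390030 (plus strand) and was read from RefSeq on GRCm38.p6.
Col10a1: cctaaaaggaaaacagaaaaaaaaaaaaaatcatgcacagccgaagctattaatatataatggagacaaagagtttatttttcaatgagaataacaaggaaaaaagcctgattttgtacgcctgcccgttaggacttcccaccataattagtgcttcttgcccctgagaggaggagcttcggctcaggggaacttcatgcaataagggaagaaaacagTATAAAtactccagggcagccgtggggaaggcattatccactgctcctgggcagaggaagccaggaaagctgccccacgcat
Its capitals mark a TATAAA match that begins 32 bases before the start, and no GC box, CCAAT, AP-1 or NF-κB match was found.

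The 7 FACIT chains split by chain. The most abundant, Col14a1, a collagen on the surface of mature fibrils, measured 375, 526, 567, 572 and 613 CPM in caIKK2EC 1 to 5, against 536, 400.1 and 609.6 CPM in Control 1 to 3, and the groups overlapped (log2 fold change 0.043, SE 0.19, edgeR adjusted p = 0.936). Col16a1, a FACIT chain of fibril surfaces, measured 98.8, 123, 103, 126 and 115 CPM in caIKK2EC 1 to 5, against 122, 86.7 and 89.9 CPM in Control 1 to 3, and its groups overlapped as well (log2 fold change 0.18, SE 0.15, edgeR adjusted p = 0.554). Of the class, 5 of 7 chains had higher estimates and the median log2 fold change was 0.18.

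Col12a1 (ENSMUSG00000032332.17, chr9:79598991-79718831, minus strand), a FACIT chain on collagen I fibrils of tissues under mechanical load, measured 71.6, 75.6, 122, 164 and 105 CPM in caIKK2EC 1 to 5, against 58.0, 59.9 and 55.7 CPM in Control 1 to 3. The Controls lay within a narrow range and every caIKK2EC library was above it, with caIKK2EC 1 and 2 nearest to the Controls and caIKK2EC 4 highest. Its mean was 108 ± 37.6 CPM in caIKK2EC and 57.9 ± 2.10 CPM in Control, a fold change of 1.86 and a log2 fold change of 0.89 with an SE of 0.25 (edgeR adjusted p = 0.146, unadjusted p = 0.00572). DESeq2 called it (adjusted p = 0.0198), but not without caIKK2EC 3 (0.0771), caIKK2EC 4 (0.0555), caIKK2EC 5 (0.0641) or any 1 of the Controls (0.0571 to 0.0880). Within lane 7 the log2 difference was 0.30.

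Col19a1 (ENSMUSG00000026141.13, chr1:24261890-24587472, minus strand), a FACIT chain known from basement membrane zones of smooth muscle and oesophagus, had the lowest log2 fold change of the 38. It measured 0.894, 2.95, 1.84, 1.07 and 1.03 CPM in caIKK2EC 1 to 5, against 3.26, 5.18 and 6.84 CPM in Control 1 to 3. Every caIKK2EC library was below every Control, with caIKK2EC 2 and Control 1 the nearest pair and Control 3 the highest library. The fold change was 0.305, a log2 fold change of -1.71 with an SE of 0.42 (edgeR adjusted p = 0.120, unadjusted p = 0.00235). DESeq2 called it (adjusted p = 0.00606) and its adjusted p was 0.114 without Control 3. edgeR called it without caIKK2EC 2 (log2 fold change -2.07, adjusted p = 0.0356) and with age as a covariate (-1.81, adjusted p = 0.0457). Over all genes edgeR called 230 higher and 129 lower without caIKK2EC 2, and 407 higher and 254 lower with age, in place of 0. The smooth muscle marker sums given beside collagen IV were lower on average in caIKK2EC but overlapped between the groups, and their part in the Col19a1 difference was not tested.

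The window of Col19a1, the chain with the lowest log2 fold change, lies at chr1:24587388-24587687 (minus strand) in the RefSeq table on GRCm38.p6.
Col19a1: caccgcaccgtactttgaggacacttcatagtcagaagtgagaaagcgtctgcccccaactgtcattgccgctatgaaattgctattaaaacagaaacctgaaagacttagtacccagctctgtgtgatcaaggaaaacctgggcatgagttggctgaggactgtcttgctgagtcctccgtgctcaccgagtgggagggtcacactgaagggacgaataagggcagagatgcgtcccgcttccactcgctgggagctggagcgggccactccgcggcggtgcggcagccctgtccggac
It holds none of the 5 motifs and therefore has no capitals.

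Of the other FACIT chains, Col22a1, known from tissue junctions such as that of muscle and tendon, averaged 3.97 ± 1.19 CPM in caIKK2EC and 2.56 ± 1.32 CPM in Control (log2 fold change 0.63, SE 0.37, edgeR adjusted p = 0.413). Col9a3, a chain of cartilage collagen IX, averaged 1.32 ± 0.468 CPM in caIKK2EC and 0.908 ± 0.198 CPM in Control (log2 fold change 0.53, SE 0.40, edgeR adjusted p = 0.539). Col20a1 averaged 5.33 ± 1.02 CPM in caIKK2EC and 6.03 ± 0.534 CPM in Control (log2 fold change -0.18, SE 0.21, edgeR adjusted p = 0.711). None of these differences passed the test, and their groups overlapped.

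**Figure D3:**
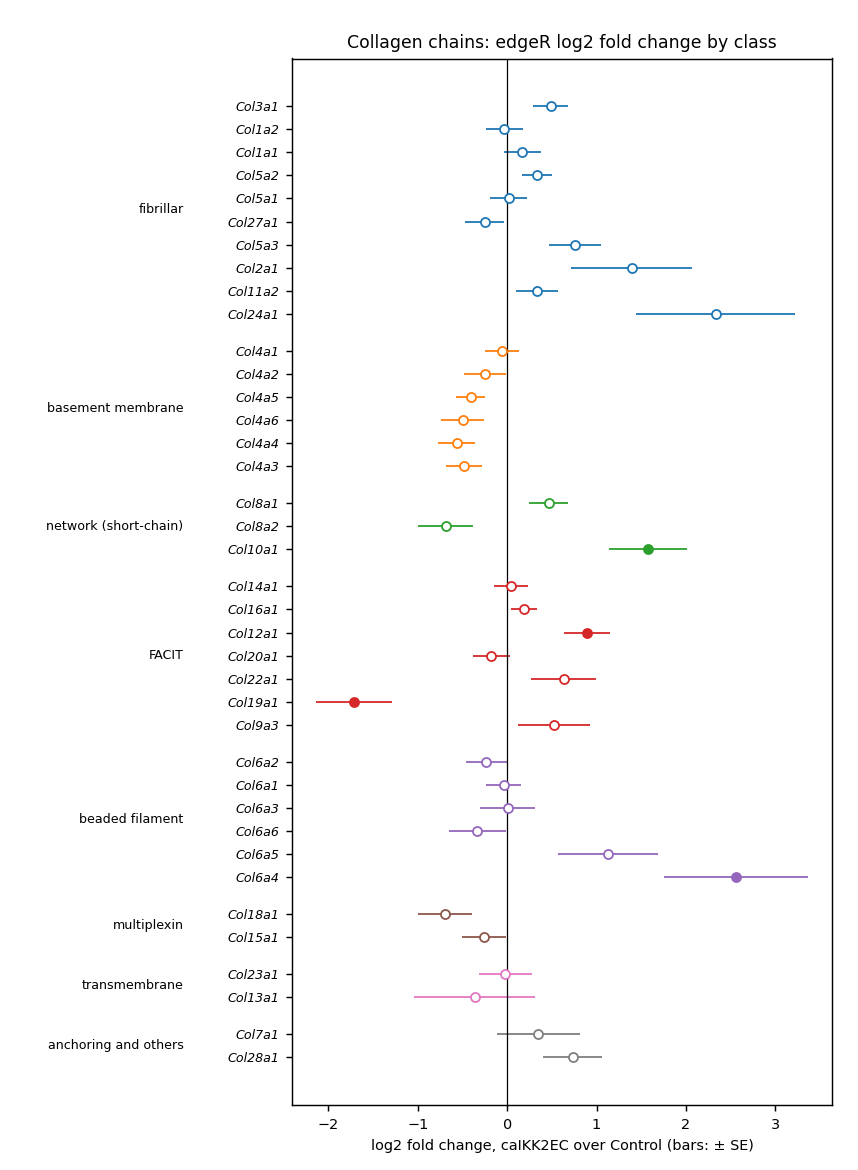
edgeR log2 fold change of the 38 collagen chains, caIKK2EC over Control, with bars of ± 1 SE, ordered by class and, within a class, by level. Filled points are the 4 chains that DESeq2 called, Col10a1, Col12a1, Col19a1 and Col6a4, and all 6 basement membrane chains lie left of 0.

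The abundant chains of collagen VI, which links cells to the interstitial matrix, had overlapping groups. Col6a1 measured 565, 812, 656, 883 and 762 CPM in caIKK2EC 1 to 5, against 666, 625 and 974 CPM in Control 1 to 3, and Col6a2 measured 559, 798, 657, 840.1 and 748 CPM in caIKK2EC 1 to 5, against 675, 649 and 1219.9 CPM in Control 1 to 3. For both, Control 3 was the highest and caIKK2EC 1 the lowest library, and the other libraries overlapped. Their log2 fold changes were -0.037 (SE 0.20, edgeR adjusted p = 0.947) and -0.24 (SE 0.23, edgeR adjusted p = 0.646), and without Control 3 they were 0.19 and 0.12. Col6a3, the large chain of the common heterotrimer, had a log2 fold change of 0.0045 with an SE of 0.31 (edgeR adjusted p = 0.997).

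Col6a4, Col6a5 and Col6a6 lie beside each other on chromosome 9 and encode chains that can replace Col6a3. Col6a4 (ENSMUSG00000032572.9, chr9:105989454-106096783, minus strand) measured 0.932, 0.969, 1.71, 7.55 and 2.01 CPM in caIKK2EC 1 to 5, against 0.259, 0.444 and 0.642 CPM in Control 1 to 3. All caIKK2EC libraries were above all Controls, and caIKK2EC 4 alone exceeded the other 7 libraries by a wide margin. The log2 fold change was 2.56 (SE 0.80, edgeR adjusted p = 0.167, unadjusted p = 0.00967) and 1.67 without caIKK2EC 4, and DESeq2 called it (adjusted p = 0.0139) but not without caIKK2EC 4 (0.0708), Control 1 (0.0678) or Control 2 (0.0517). Within lane 7 the log2 difference was 0.61. Col6a4 shares 289 exon bases with genes on the opposite strand.

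Col6a5 measured 13.9, 4.38, 5.34, 21.7 and 18.5 CPM in caIKK2EC 1 to 5, against 8.78, 3.07 and 5.73 CPM in Control 1 to 3, with caIKK2EC 2 and 3 inside the Control range (log2 fold change 1.13, SE 0.56, edgeR adjusted p = 0.337). Col6a6 averaged 17.1 ± 5.49 CPM in caIKK2EC and 21.6 ± 10.6 CPM in Control, with a log2 fold change of -0.33 with an SE of 0.32 (edgeR adjusted p = 0.636) that became 0.15 without Control 3. The neighbours had estimates of both signs.

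The Col6a4 window is shown because it is 1 of 2 collagen windows with a match to the NF-κB site, the other being that of Col27a1. It lies at chr9:106096642-106096941 (minus strand) in RefSeq on GRCm38.p6.
Col6a4: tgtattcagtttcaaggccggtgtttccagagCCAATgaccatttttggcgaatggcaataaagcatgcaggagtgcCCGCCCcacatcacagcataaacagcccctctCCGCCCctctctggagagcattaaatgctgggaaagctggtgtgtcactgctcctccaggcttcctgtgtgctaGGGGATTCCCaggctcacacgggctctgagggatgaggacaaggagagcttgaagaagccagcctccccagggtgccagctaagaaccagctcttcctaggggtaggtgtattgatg
The last run of capitals is the NF-κB match, which begins 67 bases before the start, and the others are a CCAAT box and 2 GC boxes. Over the 30 of 38 chains with a RefSeq window (32 windows, since some genes have more than 1 start), the GC box was found in 20 windows, CCAAT in 9, TATAAA in 4, AP-1 in 1 (Col6a1) and the NF-κB site in 2. Among all 32851 windows of the table the shares were 35.7% for the GC box, 37.4% for CCAAT, 13.6% for TATAAA, 7.81% for AP-1 and 4.51% for the NF-κB site. A match is a string of letters and not a measured binding site. Col1a1, Col2a1, Col4a3, Col5a2, Col9a3, Col12a1, Col14a1 and Col22a1 had no window in the table.

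The multiplexins, basement membrane zone collagens whose ends can be cleaved into fragments such as endostatin, both had lower estimates in caIKK2EC that did not pass the test. Col18a1 (ENSMUSG00000001435.15, chr10:77052178-77166548, minus strand), the source of endostatin, measured 836, 1487, 1471, 1273 and 1121 CPM in caIKK2EC 1 to 5, against 1281, 1542 and 3181 CPM in Control 1 to 3. The groups overlapped in the range of Control 1 and 2, and Control 3 was far above every other library. The log2 fold change of -0.69 with an SE of 0.30 (edgeR adjusted p = 0.279, unadjusted p = 0.0435) was -0.19 without Control 3. Col15a1, its relative, measured 373, 413, 428, 608 and 528 CPM in caIKK2EC 1 to 5, against 414, 453 and 818 CPM in Control 1 to 3, with a log2 fold change of -0.26 with an SE of 0.25 (edgeR adjusted p = 0.637) that became 0.12 without Control 3.

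The transmembrane chains had low levels and overlapping groups. Col23a1 measured 25.6, 28.4, 35.3, 15.4 and 19.8 CPM in caIKK2EC 1 to 5, against 31.1, 30.0 and 14.5 CPM in Control 1 to 3, and Col13a1, a collagen of cell adhesion sites and the neuromuscular junction, measured 1.01, 0.0843, 0.384, 0.747 and 1.23 CPM in caIKK2EC 1 to 5, against 0.815, 0.481 and 1.42 CPM in Control 1 to 3. caIKK2EC 4 and Control 3 were the lowest libraries for Col23a1, and caIKK2EC 2 was the lowest for Col13a1. Their log2 fold changes were -0.019 (SE 0.30, edgeR adjusted p = 0.985) and -0.36 (SE 0.68, edgeR adjusted p = 0.831).

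Col7a1, which encodes the anchoring fibril collagen of skin, measured 4.66, 4.13, 3.33, 11.7 and 3.72 CPM in caIKK2EC 1 to 5, against 6.37, 4.18 and 2.43 CPM in Control 1 to 3. caIKK2EC 4 stood above all other libraries, which overlapped, and the log2 fold change of 0.35 with an SE of 0.47 (edgeR adjusted p = 0.751) was -0.11 without it. Col28a1 (chr6:7997808-8192617), known from the nerve sheath, measured 1.48, 1.31, 1.75, 2.49 and 1.78 CPM in caIKK2EC 1 to 5, against 1.07, 1.18 and 0.918 CPM in Control 1 to 3. Here all caIKK2EC libraries lay above all Controls, at a mean raw count of 39.5, with a log2 fold change of 0.73 with an SE of 0.33 (edgeR adjusted p = 0.289, unadjusted p = 0.0487). Of 5 nerve and Schwann cell markers the summed levels were 49.97 to 66.6 CPM in caIKK2EC and 48.2 to 70.7 CPM in Control, ranges that overlapped. Of these 5, Mbp, a myelin protein gene, was higher at an unadjusted edgeR p under 0.05 (log2 fold change 0.40, edgeR adjusted p = 0.204), and its groups overlapped. The part of these markers in the Col28a1 difference was not tested.

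Ratios of 2 chain counts within a library do not depend on how libraries are scaled, and 10 such ratios were compared with the exact two-sided permutation test over the 56 ways to split 8 libraries into 5 and 3, whose smallest p is 0.0357. In 3 of the 10 the groups did not overlap, and none passed 0.05 after adjustment over the 10. The ratio of Col1a1 to Col1a2, the chains that combine in collagen I with Col1a1 in excess, was 1.05, 0.913, 0.877, 0.942 and 0.857 in caIKK2EC 1 to 5, against 0.816, 0.793 and 0.802 in Control 1 to 3. All caIKK2EC libraries were above all Controls, which were nearly equal, and caIKK2EC 1 was the highest. The log2 difference was 0.20 (exact p = 0.0357, adjusted exact p = 0.119), and per kb of exon the ratio averaged 1.75 in caIKK2EC and 1.52 in Control. That length is the union of exons over annotated transcripts, 6563 bases for Col1a1 and 12426 bases for Col1a2. The ratio per kb depends on it and does not measure the proportion of transcripts.

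The ratio of Col4a5 to Col4a1 was 0.111, 0.140, 0.116, 0.137 and 0.142 in caIKK2EC 1 to 5, against 0.169, 0.190 and 0.145 in Control 1 to 3. All caIKK2EC libraries were below all Controls, with caIKK2EC 5 and Control 3 the nearest pair, and the log2 difference was -0.38 (exact p = 0.0357, adjusted exact p = 0.119). Col6a1 to Col6a2 gave 1.01, 1.02, 0.999, 1.05 and 1.02 in caIKK2EC 1 to 5, against 0.987, 0.963 and 0.798 in Control 1 to 3. The caIKK2EC libraries lay in a narrow range just above Control 1 and 2, and Control 3 was the low value (log2 difference 0.16, exact p = 0.0357, adjusted exact p = 0.119). For Col3a1 to Col1a1 the ratio was 1.37, 1.25, 1.17, 1.35 and 1.64 in caIKK2EC 1 to 5, against 1.27, 1.15 and 0.908 in Control 1 to 3, and the groups overlapped (log2 difference 0.29, exact p = 0.143). The ratio of Col8a1 to Col8a2 had the widest spread, at 62.3, 31.7, 83.3, 67.1 and 48.8 in caIKK2EC 1 to 5, against 49.7, 23.2 and 13.0 in Control 1 to 3 (log2 difference 1.18, exact p = 0.107), and caIKK2EC 2 and 5 overlapped the Controls.

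**Figure D4:**
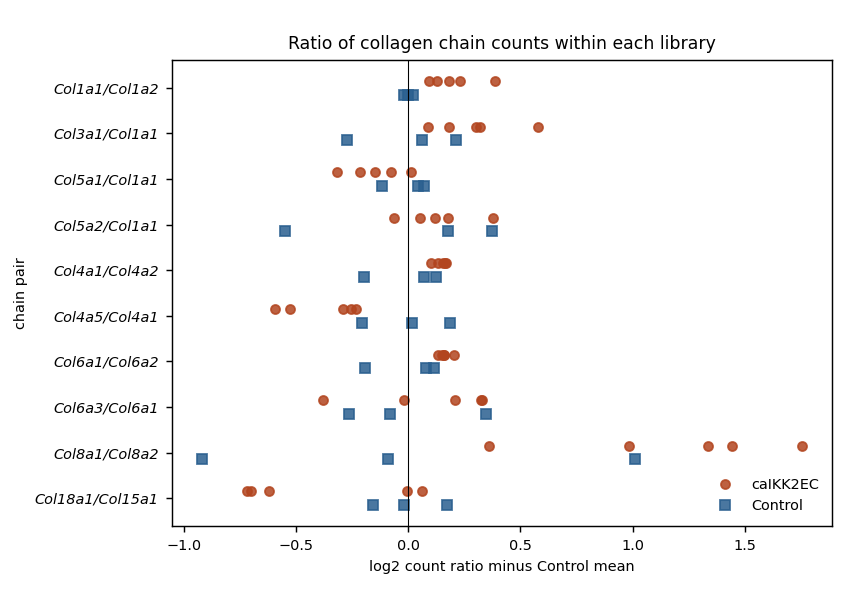
Ratios of the counts of 2 collagen chains within each library, as log2 minus the Control mean, with caIKK2EC as circles above and Control as squares below for each pair. Col1a1/Col1a2 and Col6a1/Col6a2 have all circles right of all squares and Col4a5/Col4a1 all circles left of them, by log2 differences of 0.20, 0.16 and -0.38.

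Genes that process collagen after translation had a median difference near 0. All 8 listed genes of collagen breakdown had higher estimates in caIKK2EC, beside 47.4% of all genes tested, and not all 8 were clear of 0. Of 33 listed maturation genes 31 were tested, with a median log2 fold change of 0.078, 3 higher and 2 lower at an unadjusted edgeR p under 0.05, beside 9.66% higher and 7.47% lower over all genes tested. Of 10 listed receptors 9 were tested (median 0.019, 2 higher and 0 lower at that p). All 8 listed degradation genes were tested (median 0.39), 5 of them higher at that p. The log2 fold changes of Mmp9 (0.15, SE 0.46) and Fap (0.076, SE 0.26) were smaller than their SE, and that of Ctsk was 0.39 (SE 0.22). edgeR called 0 of these genes over all genes tested (0% of all). DESeq2 called 6, all higher, beside 4.55% of all genes higher and 1.51% lower: 1 maturation gene, 2 receptors and 3 degradation genes.

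Mmp13, the main interstitial collagenase of the mouse, which cuts collagens I to III, measured 28.9, 28.8, 45.7, 59.8 and 54.6 CPM in caIKK2EC 1 to 5, against 23.6, 11.9 and 9.36 CPM in Control 1 to 3. Every caIKK2EC library was above every Control, with a log2 fold change of 1.54 with an SE of 0.36 (edgeR adjusted p = 0.1097, unadjusted p = 0.00153). Mmp14, the membrane-bound collagenase that also activates Mmp2, measured 416, 396, 474, 609 and 485 CPM in caIKK2EC 1 to 5, against 339.6, 282 and 227 CPM in Control 1 to 3, again with no overlap (log2 fold change 0.75, SE 0.18, edgeR adjusted p = 0.119). Mmp8, the neutrophil collagenase, measured 15.1, 10.1, 13.1, 20.9 and 16.1 CPM in caIKK2EC 1 to 5, against 8.74, 9.54 and 6.84 CPM in Control 1 to 3. Its groups came close at caIKK2EC 2 and Control 2 but did not overlap (log2 fold change 0.85, SE 0.24, edgeR adjusted p = 0.143). DESeq2 called all 3, with adjusted p of 8.46e-04 for Mmp13, 0.00387 for Mmp14 and 0.0197 for Mmp8, and Mmp13 and Mmp14 were called by DESeq2 without any 1 library as well, but not without Control 3 and caIKK2EC 4 together. Mmp8 was not called without caIKK2EC 4, caIKK2EC 5 or Control 3. Pepd, the dipeptidase that frees proline from collagen fragments, averaged 57.7 ± 6.01 CPM in caIKK2EC and 45.4 ± 3.13 CPM in Control with no overlap (log2 fold change 0.35, edgeR adjusted p = 0.177).

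Among receptors, Lair1, an inhibitory collagen receptor of leukocytes, measured 65.5, 45.5, 67.3, 64.5 and 67.5 CPM in caIKK2EC 1 to 5, against 39.3, 38.1 and 21.7 CPM in Control 1 to 3. All caIKK2EC libraries were above the Controls, with Control 3 lowest (log2 fold change 0.91, SE 0.21, edgeR adjusted p = 0.1097, DESeq2 adjusted p = 0.00358), and DESeq2 called it without any 1 library as well, but not without Control 3 and caIKK2EC 4 together. Itga11, the collagen-binding integrin chain of fibroblasts, averaged 22.7 ± 2.75 CPM in caIKK2EC and 15.5 ± 2.68 CPM in Control with no overlap (log2 fold change 0.55, edgeR adjusted p = 0.146, DESeq2 adjusted p = 0.0357). DESeq2 did not call Itga11 without caIKK2EC 3, 4 or 5 or without Control 1 or 2. Itgb1, its partner chain, averaged 1429.6 ± 189 CPM in caIKK2EC and 1541 ± 204 CPM in Control (log2 fold change -0.11, edgeR adjusted p = 0.782). Of 8 macrophage markers, 7 were higher at an unadjusted edgeR p under 0.05, against 9.66% of all genes tested. The summed levels of these markers were 7845 to 11175 CPM in caIKK2EC and 1830.1 to 6558 CPM in Control, which did not overlap. Their part in the Lair1 and protease values was not tested.

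Among maturation genes, Colgalt1, which attaches galactose to hydroxylysine in collagen, averaged 269 ± 22.7 CPM in caIKK2EC and 214 ± 8.21 CPM in Control with no overlap (log2 fold change 0.33, edgeR adjusted p = 0.193, DESeq2 adjusted p = 0.0465). DESeq2 still called Colgalt1 without caIKK2EC 1, but not without any 1 of the other 7 libraries. Colgalt1 shares 495 exon bases with Unc13a on the opposite strand, and P3h2 shares 1055 with Gm4524. P3h2, a prolyl hydroxylase that acts on basement membrane collagen, measured 8.51, 20.3, 12.6, 13.1 and 13.6 CPM in caIKK2EC 1 to 5, against 13.2, 22.7 and 51.1 CPM in Control 1 to 3. The groups overlapped and Control 3 was far above the rest, so that the log2 fold change of -1.09 with an SE of 0.39 (edgeR adjusted p = 0.205) was -0.40 without it. Serpinh1, the collagen chaperone HSP47, averaged 961 ± 96.3 CPM in caIKK2EC and 948 ± 81.7 CPM in Control (log2 fold change 0.019, edgeR adjusted p = 0.963).

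**Figure D5:**
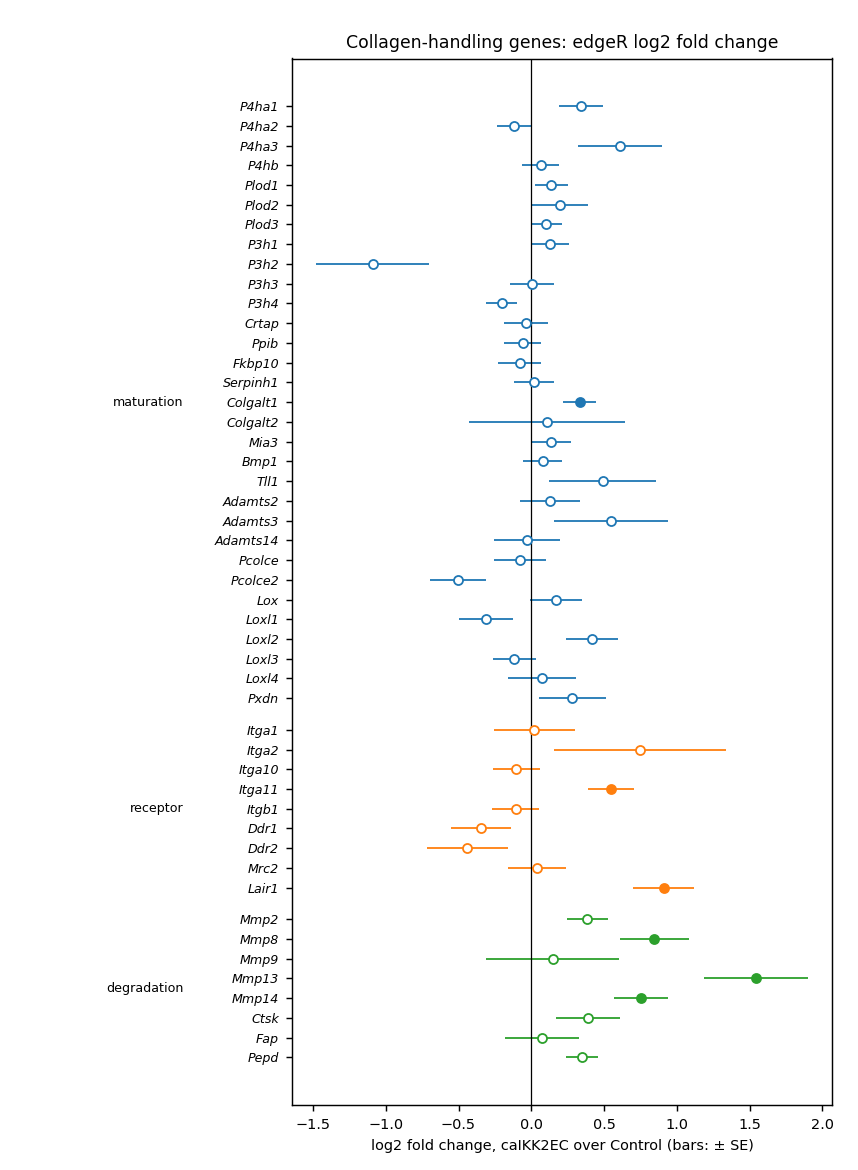
edgeR log2 fold change of the 48 tested collagen maturation, receptor and degradation genes, caIKK2EC over Control, with bars of ± 1 SE. Filled points are the 6 genes DESeq2 called, Colgalt1, Itga11, Lair1, Mmp8, Mmp13 and Mmp14. All 8 degradation genes lie right of 0, Mmp9 and Fap by less than their SE.

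Fibroblast markers, another source of collagen RNA, had overlapping sums over 7 genes (5657 to 8514 CPM in caIKK2EC and 4287 to 7641 CPM in Control). Of these, 1 gene (Lum, the lumican gene) was higher and 0 lower at an unadjusted edgeR p under 0.05, beside 9.66% and 7.47% of all genes tested. Endothelial markers overlapped as well (2422 to 3071 CPM in caIKK2EC and 1495 to 2909 CPM in Control over 7 genes), with 1 gene higher and 0 lower at that p. This was Vwf, the von Willebrand factor gene, with all caIKK2EC libraries above all Controls (log2 fold change 0.59, edgeR adjusted p = 0.191, DESeq2 adjusted p = 0.0488). The summed level of 6 perivascular fat markers was 197 to 2644 CPM in caIKK2EC and 1165 to 1536 CPM in Control, with caIKK2EC 1 the highest and caIKK2EC 2 the lowest library. The part of these markers in the chain levels was not tested.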

How the data were processed

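The deposited table of the authors holds raw counts per gene for 8 aorta libraries, single reads of 50 nt from poly(A) RNA prepared with a directional kit, per the labels' protocols. FastQC 0.11.5, STAR 2.7.0e, DESeq2 1.22.2 and the build GRCm38 (mm10) are named in the submitters' processing notes, with the counting program, annotation and strand use not given in the sources used here. Reads of overlapping and antisense genes therefore cannot be told apart. The authors' deposited table of comparisons gives log2 fold changes and p-values, used only beside the DESeq2 results. Regularized log2 values, also deposited, were left out. Each library is 1 mouse with its own sex and age, per the labels, and the lane was read from the column names.

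The main test was the quasi-likelihood test of edgeR 4.0.16 in R 4.3.3 with limma 3.58.1, after TMM scaling and the default filter by group, with a robust fit of genotype alone and Benjamini-Hochberg adjustment over 14679 genes at 0.05. DESeq2 1.42.0 was the alternative. CPM values are TMM-scaled, and CPM per kb uses the union of GENCODE M21 exons of each gene on GRCm38. Both procedures were run on simulated counts with known fold changes, the same dispersion for every gene and no outlying library. That setting differs from these data and cannot account for the different numbers of genes called. No pair of libraries agreed within sampling noise (lowest chi-square per degree of freedom 16.9). Total counts of 23461655 to 30808502 mean that chains near 1 CPM rest on few reads.

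The chains, classes, gene lists and tests were chosen with earlier results of these data known. Values for every library are given for chains with an unadjusted edgeR p or a DESeq2 adjusted p under 0.05 and for the 2 most abundant of each class. Of the other lists the 8 genes with the smallest p and the 2 most abundant are named. Library values of Col2a1, Col4a6 and Col6a5 and the Ikbkb result, which checks the targeted gene, were added outside this rule. Alternatives were DESeq2, other scalings, filters and count minimums, sex, age or lane as a covariate, the replicate number as a block, leaving out each library, and lane 7 alone.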

Additional observations from a re-analysis of the deposited data

Results flagged for a closer look

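Within the 5 caIKK2EC libraries, 1 library lay far from the other 4 for 7 of 67 values examined, by the gap to its nearest neighbour over the group's range. Chance flags about 1 in 20 groups. caIKK2EC 4 was the high library for Col5a3 (93.3 CPM in caIKK2EC 4 against 48.0 CPM in the next), Col24a1 (19.0 CPM in caIKK2EC 4 against 4.27 CPM in the next), Col6a4 (7.55 CPM in caIKK2EC 4 against 2.01 CPM in the next) and Col7a1 (11.7 CPM in caIKK2EC 4 against 4.66 CPM in the next). It was also the high library for the summed level of anchoring and other chains (14.2 CPM in caIKK2EC 4 against 6.29 CPM in the next), most of which is Col7a1. Col8a2 was high in caIKK2EC 2 (5.56 CPM in caIKK2EC 2 against 3.33 CPM in the next). Lair1 was low in the same library (45.5 CPM in caIKK2EC 2 against 64.5 CPM in the next). The smooth muscle, macrophage and chondrocyte marker sums of caIKK2EC 4 were 13469, 8261 and 134 CPM, inside the range of the other caIKK2EC libraries. Its endothelial marker sum of 2422 CPM and its B cell marker sum of 2.74 CPM were the lowest of the 5, and its sums for the other 5 marker lists were inside the range. The cause of its high values was not tested.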

How the results depend on the processing

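Under another scaling or filter on low counts edgeR still called 0 chains. DESeq2 called 4 chains and 6 of the maturation, receptor and degradation genes, and age as a covariate gave 2 and 2. With age, 407 of 14679 genes were called higher and 254 lower, in place of 0. Leaving out 1 library at a time gave 0 to 1 chains called and 0 to 3 of the other genes called. These calls came only without caIKK2EC 2, where 230 of all genes were called higher and 129 lower. Over these fits without 1 library, 4 to 9 chains were higher and 1 to 6 lower at an unadjusted edgeR p under 0.05. The collagen median log2 fold change was -0.056 to 0.19 over them. With age as a covariate 6 chains were higher and 9 lower at that p, outside the range for lower chains. The fit with lane is not counted here, since genotype in it rests on caIKK2EC 1 alone. The chains higher numbered 4 at a mean raw count of 100 or more. The chains lower numbered 1 with sex as a covariate, which is close to leaving out Control 3. In DESeq2, leaving out 1 library gave 1 to 7 chains, beside 374 to 1742 of all genes. That setting was chosen after seeing the data, and so was leaving out Control 3 and caIKK2EC 4 together. The latter gave 2 chains lower in edgeR, and 1 chain called in DESeq2 beside 158 of all genes. The number of ratios past the adjusted threshold was 0 under every setting with a test.

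Signs of some chains, other genes and ratios that were not called turned as follows, in log2. Not all were near 0, since the main estimate was -0.36 for Col13a1, 0.35 for Col7a1 and 0.33 for Col11a2. With sex as a covariate the values became Col1a2 0.20, Col4a1 0.21, Col4a2 0.16, Col6a2 0.12, Col6a1 0.19, Col6a6 0.14, Col15a1 0.12, Col13a1 0.11, Itgb1 0.0016. With age they became Col5a1 -0.044, Col14a1 -0.036, Col6a3 -0.080, Col23a1 0.22, Serpinh1 -0.019. With lane they became Col5a1 -0.32, Col11a2 -0.21, Col14a1 -0.46, Col16a1 -0.012, Col20a1 0.12, Col6a3 -0.51, Col23a1 0.019, Col13a1 0.17, Serpinh1 -0.16. Within lane 7 they were Col5a1 -0.28, Col11a2 -0.19, Col14a1 -0.43, Col20a1 0.12, Col6a3 -0.41, Col23a1 0.10, Col13a1 0.16, Serpinh1 -0.15, the ratio Col6a3/Col6a1 -0.017. With RLE size factors Col6a3 was -0.00037. Without Control 3 and caIKK2EC 4 together they were Col1a2 0.13, Col4a1 0.19, Col4a2 0.14, Col6a2 0.064, Col6a1 0.12, Col6a6 0.13, Col15a1 0.011, Col13a1 0.087, Col7a1 -0.41, the ratio Col5a2/Col1a1 -0.14. Leaving out 1 library at a time gave -0.17 to 0.20 for Col1a2, -0.11 to 0.29 for Col5a1, -0.41 to 0.086 for Col27a1, -0.17 to 0.21 for Col4a1, -0.41 to 0.16 for Col4a2, -0.092 to 0.18 for Col14a1, -0.38 to 0.12 for Col6a2, -0.14 to 0.19 for Col6a1, -0.21 to 0.48 for Col6a3, -0.52 to 0.15 for Col6a6, -0.42 to 0.12 for Col15a1, -0.29 to 0.17 for Col23a1, -0.66 to 0.11 for Col13a1, -0.11 to 0.75 for Col7a1, -0.17 to 0.0022 for Itgb1, -0.023 to 0.084 for Serpinh1, -0.039 to 0.27 for the ratio Col6a3/Col6a1, -0.14 to 0.32 for the ratio Col5a2/Col1a1. The causes were not tested.

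Residuals of libraries with the same replicate number correlated at 0.38, 0.082 and 0.11. Control 1 and 2 correlated best with their own number but Control 3 with caIKK2EC 4 (0.20). So few values cannot decide whether the replicate number pairs the libraries. With the replicate number as a block, edgeR called 0 chains, with 5 higher and 5 lower at an unadjusted p under 0.05, a median of -0.045, and Col5a1 -0.039, Col14a1 -0.074, Col6a3 -0.17, Col23a1 0.29, Col7a1 -0.016, Serpinh1 -0.034. Control has no replicate 4 or 5, so that caIKK2EC 4 and caIKK2EC 5 do not inform genotype in that fit. It rests on the same-numbered libraries 1 to 3 of each group.

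Low chains are limited by depth: Col10a1, Col6a4, Col19a1 and Col28a1 have mean raw counts under 100. With 5 and 3 libraries an exact test of 1 value cannot go below 0.0357. The single male Control, 1 shared lane and 1 age group are spread unevenly over the genotypes, so that sex and Control 3 cannot be told apart, and neither can lane and genotype for the 4 libraries of lane 8, which are all caIKK2EC. Strand use in counting is not known.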
